A study of Mus musculus with 24 samples.

Results

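TGF-β ligands, the proteins that keep them latent and the proteins that cleave or activate them were followed as 10 genes in bone marrow-derived macrophages, adherent phagocytes grown from mouse marrow. The members were chosen by gene symbol and matched to the gene names of the deposited table, which holds 54532 genes, and each symbol was found exactly 1 time. They are the ligands Tgfb1, Tgfb2 and Tgfb3 and the activin A subunit gene Inhba, the convertase Furin, the latency proteins Nrros, Ltbp1, Ltbp3 and Ltbp4, and the activator Thbs1. Of these, 9 passed the filter on low counts and were tested, and Tgfb2 did not. The study asked how Smad2 and Smad3, the SMAD proteins that carry the TGF-β signal to the nucleus, shape macrophages.

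All mice were C57BL/6 and 2 to 3 months old, and the marrow came from the tibia. Smad2fl libraries come from mice with both Smad2 alleles floxed, and MyS2KO libraries from the same floxed line carrying LyzM-Cre. Smad3fl and MyS3KO are the matching pair with floxed Smad3. LyzM-Cre expresses the recombinase from the lysozyme gene Lyz2, so deletion is directed to myeloid cells and can be incomplete. Every culture received IL-3 and then CSF-1, which drives macrophage growth, and was kept without serum before the treatment. Each genotype has 3 untreated libraries and 3 that received 10 ng/ml TGF-β1 for 4 hours, which makes 24 libraries in 8 groups. Separate animals are not named for the replicates in the labels, so p-values measure only the spread between libraries, which may be technical. A count of 8 cDNA libraries in the protocol leaves unknown whether RNA was pooled.

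TGF-β is made as a precursor that a furin-type convertase cuts into the mature growth factor and its propeptide, the latency-associated peptide. The propeptide stays wrapped around the growth factor and holds it inactive. It is linked either to a latent TGF-β binding protein (LTBP), which anchors the complex in the matrix, or to a cell-surface milieu molecule such as NRROS on macrophages and microglia. Integrins, proteases or thrombospondin-1 can then free the ligand. Macrophages are a well-known source of TGF-β1 in healing tissue.

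Libraries held 16.9 to 24.9 M counted reads, where M stands for 1e+06. The 6 macrophage markers were present in every library, from Mertk at 177 CPM or more to the F4/80 gene Adgre1 at 8281 CPM or more. CPM are reads per 1e+06 reads of the scaled library total. The 6 fibroblast markers together did not exceed 2.24 CPM in any library. Not all other lists were as low. The 5 endothelial markers summed to 32.4 to 168 CPM, with Kdr at 14.9 to 142 CPM. The 4 dendritic cell markers summed to 14.0 to 38.9 CPM, with Xcr1 at 13.8 to 38.5 CPM. The neutrophil list reached 12.2 CPM at most, the B cell list 4.08, the mast cell list 0.450 and the T cell list 0.160. The platelet list is given with Thbs1. The source of these reads was not tested. Smad2 was not lower in the libraries labelled MyS2KO than in Smad2fl (untreated log2 difference -0.06 ± 0.12, adjusted p = 0.924). Whether those counts can see the deletion was not tested, so every direction drawn from these libraries rests on their label. Smad3 was lower in MyS3KO than in Smad3fl (untreated -1.21 ± 0.14, adjusted p = 6.91e-06), but both stood far above Smad2fl, at 184 ± 24.0, 424 ± 48.2 and 41.5 ± 3.97 CPM (SD, n = 3). Under TGF-β1 the Smad3 difference was smaller (-0.63 ± 0.13, adjusted p = 0.00208), at 268 ± 19.8 CPM in MyS3KO and 415 ± 23.1 in Smad3fl. Smad3 rose with TGF-β1 in MyS3KO (0.54 ± 0.13, adjusted p = 0.00932). Its reads were thus reduced and not absent in MyS3KO, and what they come from was not tested. The Smad3fl libraries stand apart: ribosomal protein transcripts took 0.879% to 1.41% of their reads against 1.5% to 2.23% in the other 18. On the first principal component, with 32.7% of the variance, 5 of the 6 lay between 63.8 and 83.1 and untreated library 3 lay at 6.93, while the other 18 spanned -65.6 to 18.9. The part of this shift in the Smad3fl results was not tested, and values without single libraries are given where these move a result. The Furin response in Smad3fl stayed between 1.54 and 1.84 and that of Nrros between -1.38 and -0.95 on the log2 scale, with a call in each of 14 alternatives. These are bulk samples, so fewer cells of a type and less RNA per cell cannot be told apart.

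The abundant members were Nrros, Tgfb1, Thbs1, Furin and Ltbp3, and the other 5 were scarce. Per transcript length, as the mean of the deposited FPKM in untreated Smad2fl, the order was Nrros (181 ± 19.7), Tgfb1 (113 ± 17.6), Thbs1 (39.0 ± 7.92), Furin (29.7 ± 2.36) and Ltbp3 (5.18 ± 0.448; SD, n = 3). The scarce members lay below in the same group, at 0.165 ± 0.101 FPKM for Ltbp4, 0.0706 ± 0.0436 for Inhba, 0.0543 ± 0.0534 for Tgfb3, 0.0424 ± 0.0402 for Ltbp1 and 0.0173 ± 0.0300 for Tgfb2, and these neighbours do not differ beyond their spread. Thbs1 and Furin overlapped there (31.6 to 47.4 and 27.7 to 32.3 FPKM), while Nrros, Tgfb1, Thbs1 and Ltbp3 did not overlap with each other. Nrros had the highest mean in untreated Smad2fl, MyS2KO and MyS3KO, whereas Thbs1 had the highest mean in untreated Smad3fl, at 429 ± 254 FPKM against 167 ± 30.8 for Nrros. The libraries of these overlapped there, since library 3 had 146 FPKM for Thbs1 and 197 for Nrros. In untreated MyS3KO, Nrros (147 to 188 FPKM) overlapped with Tgfb1 (70.1 to 163 FPKM). The order of Tgfb1 and Thbs1 in MyS2KO and MyS3KO depends on the gene length used and is not read here.

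**Figure D1:**
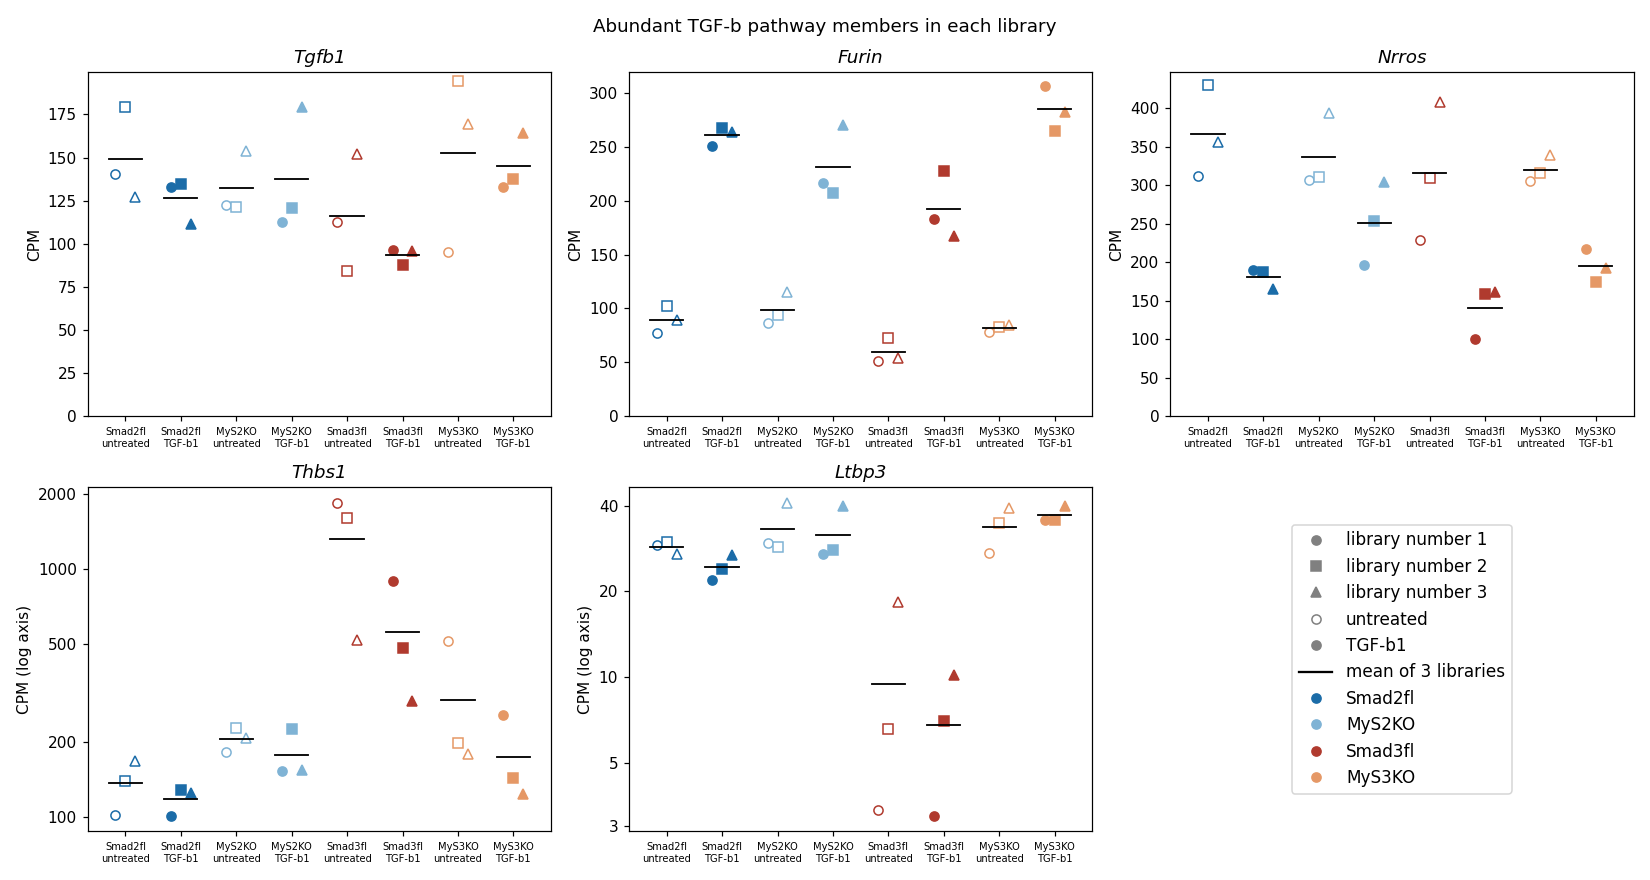
Level of the 5 abundant members in each library (vertical axes, CPM, logarithmic for Thbs1 and Ltbp3) by group (horizontal axes). Points are libraries, open untreated and filled treated with TGF-β1, shapes give the library number and bars the mean of 3. Furin was higher in every treated library (167 to 307 CPM) than in any untreated library (51.5 to 115 CPM). How many of all genes separate in this way was not counted.

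After TGF-β1 the convertase gene Furin rose in all 4 genotypes and the milieu molecule gene Nrros fell in Smad2fl, Smad3fl and MyS3KO. The Tgfb1 gene itself passed the test in no genotype. Of the 9 members tested, 2 were called in Smad2fl against 11.1% of all 14261 genes tested. The count was 1 in MyS2KO against 3.41% of all genes, 2 in Smad3fl against 12% and 2 in MyS3KO against 10%. A call is an adjusted p under 0.05 in edgeR's quasi-likelihood test with Benjamini-Hochberg adjustment over all tested genes. Where libraries of different groups are said not to overlap, the share of all genes that separate alike was not counted. The median log2 change of the members was 0.10, -0.07, -0.32 and 0.07 in Smad2fl, MyS2KO, Smad3fl and MyS3KO, and that of all tested genes was 0.01, 0.01, -0.03 and 0.00.

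Sequences upstream of the start sites are shown for the members whose response to TGF-β1 passed the test, and for Tgfb1, whose change did not pass it, so that the SMAD-type motifs they carry can be compared. RefSeq promoters of the GRCm38.p6 build were found for 8 of the 10 members, and Thbs1 and Tgfb3 were not matched. Each line holds the 250 bases before the start, read 5′ to 3′ on the gene's strand. Capitals mark CAGAC (reverse complement GTCTG), the core of a SMAD binding element, GGCGC (reverse complement GCGCC), a GC-rich SMAD motif, and TGANTCA, an AP-1 motif that reads alike on both strands apart from N. GGCGC and its complement overlap within GGCGCC and are then both counted. Furin has a pair of RefSeq starts, and the upstream 1 is the start of the deposited gene model.
Furin, upstream start, minus strand, chr7:80405437-80405686: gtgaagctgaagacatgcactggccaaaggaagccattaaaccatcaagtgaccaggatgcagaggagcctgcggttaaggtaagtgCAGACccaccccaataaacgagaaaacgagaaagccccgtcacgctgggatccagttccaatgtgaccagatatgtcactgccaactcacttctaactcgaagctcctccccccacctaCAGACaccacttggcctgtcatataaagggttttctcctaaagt
Furin, downstream start, minus strand, chr7:80402813-80403062: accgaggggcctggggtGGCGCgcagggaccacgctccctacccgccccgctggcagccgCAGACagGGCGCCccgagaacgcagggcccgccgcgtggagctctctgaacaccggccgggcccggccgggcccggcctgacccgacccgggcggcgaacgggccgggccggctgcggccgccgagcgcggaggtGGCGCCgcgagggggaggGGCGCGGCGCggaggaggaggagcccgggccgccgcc
Nrros, minus strand, chr16:32165595-32165844: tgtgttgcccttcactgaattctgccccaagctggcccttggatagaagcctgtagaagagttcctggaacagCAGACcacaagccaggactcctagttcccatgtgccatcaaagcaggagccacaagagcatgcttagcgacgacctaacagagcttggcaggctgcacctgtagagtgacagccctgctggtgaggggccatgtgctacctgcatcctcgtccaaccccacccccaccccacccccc
Tgfb1, plus strand, chr7:25686752-25687001: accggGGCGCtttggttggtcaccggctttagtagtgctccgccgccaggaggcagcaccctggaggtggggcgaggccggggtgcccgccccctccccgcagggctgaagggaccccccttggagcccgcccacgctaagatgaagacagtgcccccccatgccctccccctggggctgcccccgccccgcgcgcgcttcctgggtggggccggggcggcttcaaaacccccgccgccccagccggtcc
The upstream Furin window holds 2 matches to CAGAC and none to the GC-rich motif, and has a GC content of 50.4%. The downstream window holds 1 CAGAC and 7 GGCGC matches, at 83.2% GC. The Nrros window holds 1 CAGAC and no GGCGC, and that of Tgfb1 holds no CAGAC and 1 GGCGC. No window of these 4 holds TGANTCA or the joined palindrome GTCTAGAC. Members without a called response carry the short motifs too. The Ltbp3 window holds 1 CAGAC, those of Ltbp1 hold 1 and 2, and that of Inhba holds 0. Windows of Ltbp4 hold 0 CAGAC, with 0, 7 and 8 GGCGC matches at its different starts. Among 32851 RefSeq promoters cut to the same 250 bases, 42.2% hold CAGAC, 32.0% GGCGC, 6.75% TGANTCA and 0.167% GTCTAGAC, so a match to the short motifs is common. The letters describe the windows and show no binding, and a relation between motif and response was not tested.

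Furin (ENSMUSG00000030530, chr7:80388585-80405436, minus strand, mm10) encodes the proprotein convertase that cuts the TGF-β precursor, among many other substrates. In Smad2fl its level was 77.1, 102 and 89.4 CPM untreated and 251, 268 and 264 CPM with TGF-β1. In MyS2KO it was 86.6, 93.6 and 115 CPM untreated and 216, 207 and 270 CPM treated. Treated and untreated libraries did not overlap in either genotype, nor in the Smad3 line. Smad3fl had 51.5, 72.8 and 53.8 CPM untreated and 183, 228 and 167 CPM treated. MyS3KO had 77.8, 82.5 and 84.8 CPM untreated and 307, 264 and 283 CPM treated. The 3 untreated Smad3fl libraries lay below all other untreated libraries, and the highest value was that of treated MyS3KO library 1. The fitted log2 rise was 1.54 ± 0.16 in Smad2fl (adjusted p = 2.33e-07), 1.23 ± 0.15 in MyS2KO (1.33e-05), 1.70 ± 0.16 in Smad3fl (8.31e-08) and 1.80 ± 0.16 in MyS3KO (2.64e-08), where the value after ± is the standard error. The rise ranged from 2.35-fold to 3.48-fold over the genotypes. The rises did not differ between knockout and floxed libraries past the test, with a difference of -0.31 ± 0.22 in the Smad2 line (adjusted p = 0.999928) and 0.10 ± 0.22 in the Smad3 line (adjusted p = 0.899). The antisense gene Gm44851 shares 118 exonic bases with Furin, or 1.29% of its exons, and held 105 reads over all libraries against 79371 for Furin.

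Nrros (ENSMUSG00000052384, chr16:32142785-32165594, minus strand), which tethers latent TGF-β1 to the macrophage surface, moved the other way. In Smad2fl it was at 311, 430 and 356 CPM untreated and 189, 187 and 165 CPM with TGF-β1, a fall of 2.03-fold (log2 -1.02 ± 0.20, adjusted p = 0.00127). In Smad3fl it was at 229, 310 and 408 CPM untreated and 101, 159 and 161 CPM treated, a fall of 2.25-fold (-1.17 ± 0.20, adjusted p = 0.000287). In both floxed genotypes every treated library lay below every untreated library. In MyS3KO it was at 305, 316 and 339 CPM untreated and 217, 175 and 192 CPM treated, a fall of 1.64-fold (-0.72 ± 0.20, adjusted p = 0.0231). That call was lost when treated library 2 (adjusted p = 0.0867), treated library 3 (0.0673) or untreated library 3 (0.0592) was left out, at log2 values of -0.68, -0.74 and -0.70. In MyS2KO, 306, 310 and 394 CPM untreated stood against 196, 253 and 304 CPM treated, and the change did not pass the test (-0.43 ± 0.20, adjusted p = 0.410). With the library number as a block, Nrros was called in MyS2KO (-0.44, adjusted p = 0.0234), where 7.24% of all genes were called. That pairing was read from these same counts and not from the labels, so the call is no independent support. The libraries of MyS2KO did not overlap either, but the highest treated value of 304 CPM came close to the lowest untreated value of 306 CPM.

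The fitted Nrros response was 0.60 ± 0.28 log2 units less negative in MyS2KO than in Smad2fl and 0.45 ± 0.28 less negative in MyS3KO than in Smad3fl. Neither difference passed the test, with adjusted p-values of 0.999928 and 0.728. An effect called in Smad2fl and not in MyS2KO is thus not shown to differ between them. Under TGF-β1, Nrros stood 0.48 ± 0.20 higher in MyS2KO than in Smad2fl (adjusted p = 0.424) and 0.47 ± 0.20 higher in MyS3KO than in Smad3fl (adjusted p = 0.0825), without a call. The knockout libraries lay above the floxed ones in both lines there, with no overlap of the 3 against 3 libraries. The share of all genes that separate in this way was not counted, so the separation says little about Nrros. The Smad3 line difference was called without the Smad3fl libraries numbered 3 (0.58, adjusted p = 0.0389) and was 0.30 (adjusted p = 0.237) without those numbered 1.

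**Figure D2:**
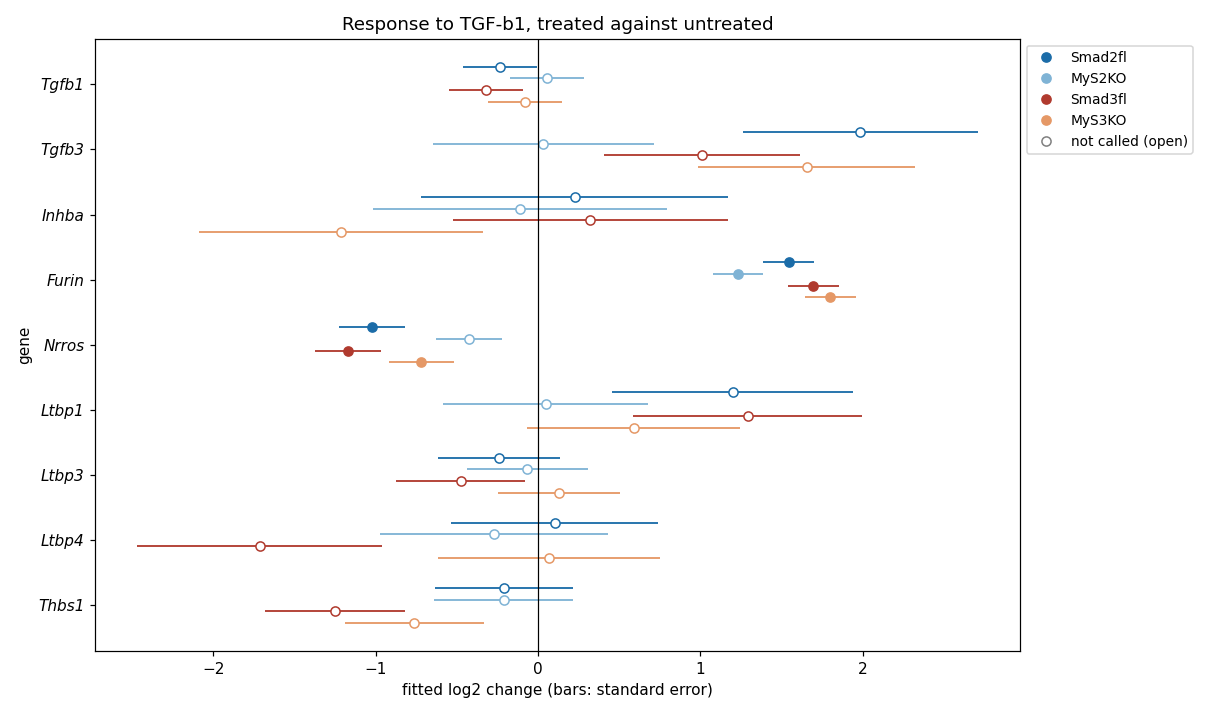
Fitted log2 change after TGF-β1 (horizontal axis) for the 9 tested members (vertical axis) in each genotype (colours), with standard errors as bars. Filled points passed the test: Furin in all 4 genotypes, and Nrros in Smad2fl, Smad3fl and MyS3KO.

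Tgfb1 (ENSMUSG00000002603, chr7:25687002-25705077, plus strand), the main TGF-β ligand of macrophages, was expressed in every library at 84.2 to 194 CPM. In Smad2fl it was at 141, 179 and 127 CPM untreated and 133, 135 and 111 CPM treated. MyS2KO had 122, 121 and 154 CPM untreated and 112, 121 and 179 CPM treated. Treated and untreated libraries overlapped in both. Smad3fl had 113, 84.2 and 152 CPM untreated and 96.3, 87.5 and 95.9 CPM treated. MyS3KO had 95.0, 194 and 169 CPM untreated and 133, 138 and 164 CPM treated. The ranges overlapped here too. The fitted log2 changes were -0.24 ± 0.23, 0.05 ± 0.23, -0.32 ± 0.23 and -0.08 ± 0.23 in Smad2fl, MyS2KO, Smad3fl and MyS3KO, with adjusted p-values of 0.557, 0.965, 0.416 and 0.900. A response of Tgfb1 was thus not detectable. In each genotype the approximate 95% interval, taken from the standard error, reached no lower than -0.78 and no higher than 0.51.

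The other ligands were close to the detection limit, and their reads are given as deposited counts. Tgfb2 (ENSMUSG00000039239, chr1:186622792-186705989, minus strand) had 21 reads over all 24 libraries and none in 15 of them, with a highest count of 6 in treated Smad2fl library 2. Inhba (ENSMUSG00000041324, chr13:16011851-16031621, plus strand), whose product forms activin A, had 0 to 20 reads per library. Inhba was called in none of the 11 comparisons, and at this depth a change of the size seen for Nrros could not have been resolved, since its standard errors were 0.84 log2 units or more.

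Tgfb3 (ENSMUSG00000021253, chr12:86056745-86079041, minus strand) had 9, 0 and 4 reads in untreated and 15, 30 and 7 in treated Smad2fl. It had 7, 13 and 2 reads in untreated and 19, 32 and 21 in treated MyS3KO. Treated libraries lay above untreated ones in MyS3KO. In Smad2fl the read counts overlapped, whereas per scaled library total the untreated libraries lay at 0 to 0.358 CPM and the treated ones at 0.365 to 1.32 CPM. Smad3fl had 35, 17 and 5 reads untreated and 44, 34 and 25 treated, and MyS2KO had 7, 13 and 11 untreated and 12, 8 and 11 treated. The fitted log2 change was 1.99 ± 0.72 in Smad2fl (adjusted p = 0.0843), 1.66 ± 0.67 in MyS3KO (0.135), 1.01 ± 0.61 in Smad3fl (0.321) and 0.03 ± 0.68 in MyS2KO (0.996). None passed the edgeR test. The Smad2fl value rests on single libraries, at 1.37 without treated library 2 and 2.84 without untreated library 1, again without a call. DESeq2 called the Smad2fl change (2.01, adjusted p = 0.0358). Tgfb3 lies within the span of Ttll5 on the other strand, shares no exonic base with it, and Ttll5 was not called in these responses.

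**Figure D3:**
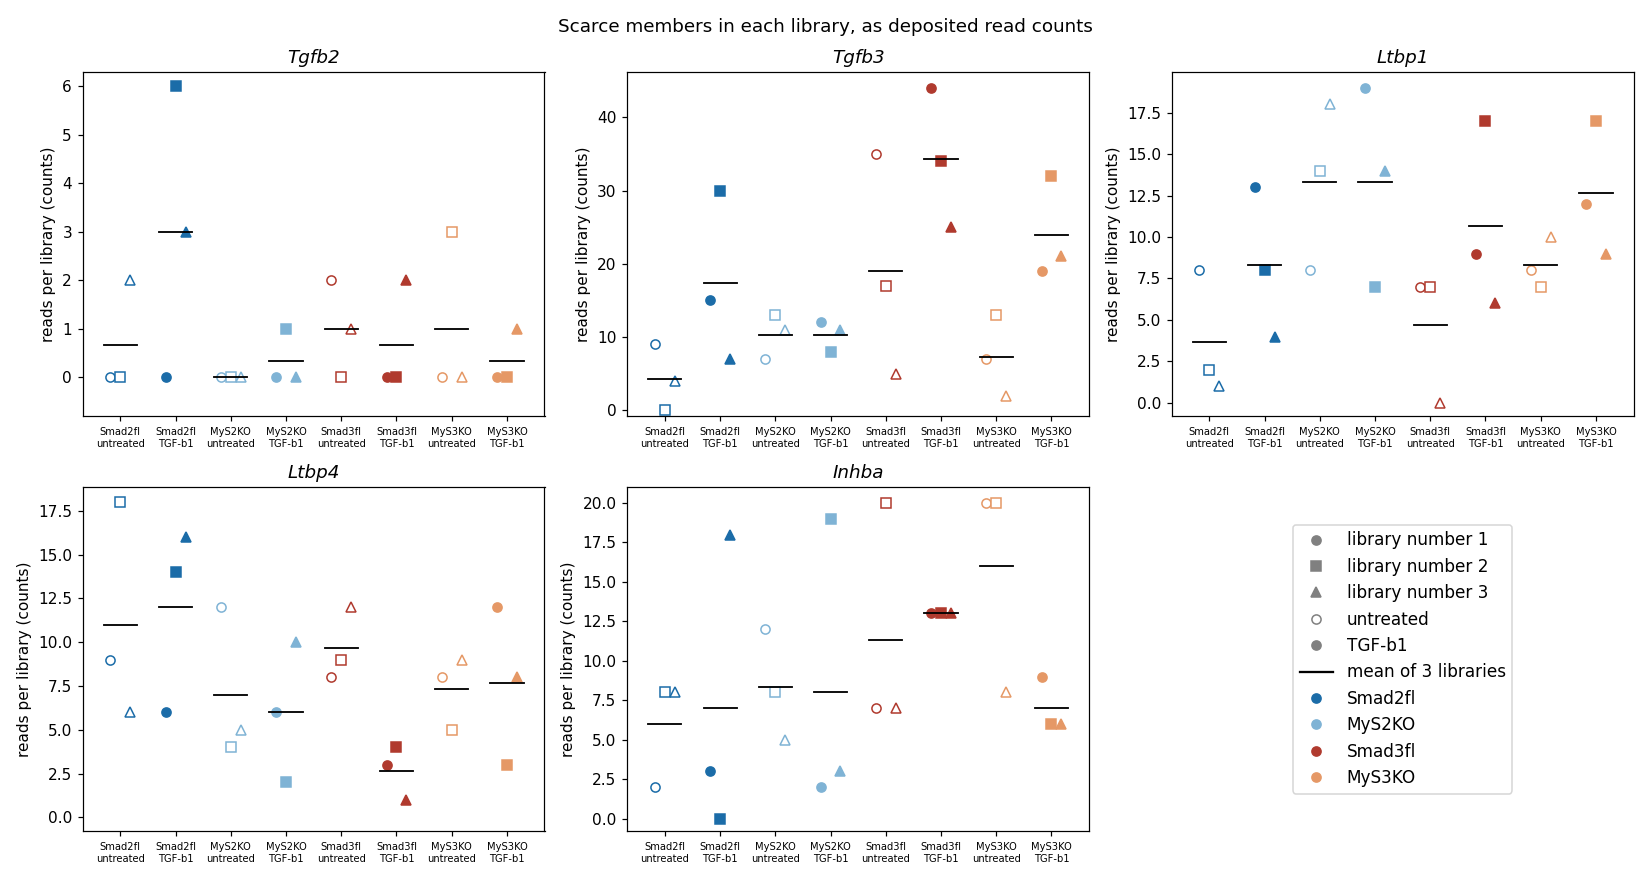
Deposited read counts (vertical axes) of the 5 scarce members in each library by group (horizontal axes). Points are libraries, open untreated and filled treated, shapes give the library number and bars the mean of 3. No library held more than 44 reads of any of them, and Tgfb2 had none in 15 of 24.

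Of the 3 latent TGF-β binding protein genes among the members, Ltbp3 had the highest level. Ltbp1 (ENSMUSG00000001870, chr17:75005568-75392512, plus strand) had 0 to 19 reads per library and Ltbp4 (ENSMUSG00000040488, chr7:27305136-27337692, minus strand) 1 to 18. Neither was called in any comparison. Ltbp4 had 3, 4 and 1 reads in treated Smad3fl, below the 8, 9 and 12 reads of untreated Smad3fl (log2 -1.72 ± 0.75, adjusted p = 0.158). Ltbp1 had 8, 2 and 1 reads in untreated Smad2fl and 8, 14 and 18 in untreated MyS2KO, a difference of 1.98 ± 0.72 that was not called (adjusted p = 0.386). It was 3.01 without untreated Smad2fl library 1, also without a call. Fitted values of the other scarce members tested, Inhba, Tgfb3 and Ltbp4, also moved by over 1.5 times in several comparisons when 1 library was left out.

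Ltbp3 (ENSMUSG00000024940, chr19:5740904-5758532, plus strand) did not respond to TGF-β1 past the test in any genotype, with log2 changes of -0.24 ± 0.38, -0.07 ± 0.37, -0.48 ± 0.40 and 0.13 ± 0.37 in Smad2fl, MyS2KO, Smad3fl and MyS3KO. The Smad3fl value was 0.43 without untreated library 3 and -0.91 without untreated library 1, so its direction rests on 1 library, and neither was called. All 6 Smad3fl libraries lay below all libraries of the other genotypes. In Smad3fl they were 3.43, 6.58 and 18.4 CPM untreated and 3.26, 6.99 and 10.2 CPM treated. In MyS3KO they were 27.3, 34.7 and 39.3 CPM untreated and 35.5, 35.5 and 39.8 CPM treated. No MyS3KO library overlapped with a Smad3fl library. How many of all genes set Smad3fl apart in this way was not counted, so the separation alone says little about Ltbp3. The spread was wide in untreated Smad3fl, with a mean of 9.47 ± 7.90 CPM (SD, n = 3). In the Smad2 line it was at 29.0, 29.9 and 26.9 CPM in untreated Smad2fl and 29.6, 28.6 and 40.9 CPM in untreated MyS2KO. With TGF-β1 the values were 21.9, 24.0 and 26.9 CPM in Smad2fl and 27.0, 27.8 and 39.9 CPM in MyS2KO.

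Thbs1 (ENSMUSG00000040152, chr2:118111876-118127133, plus strand) encodes thrombospondin-1, a matricellular protein that can release TGF-β from its propeptide. It ran from 101 to 1850 CPM over the libraries, the widest range of the abundant members. In Smad3fl it was at 1850, 1609 and 519 CPM untreated and 898, 481 and 293 CPM with TGF-β1. In MyS3KO it was at 510, 199 and 180 CPM untreated and 257, 143 and 123 CPM treated. Every Smad3fl library lay above the MyS3KO libraries of the same treatment, and treated and untreated libraries overlapped within both genotypes. How many of all genes separate Smad3fl from MyS3KO in this way was not counted. In Smad2fl it was at 102, 139 and 168 CPM untreated and 101, 128 and 125 CPM treated. In MyS2KO it was at 182, 228 and 207 CPM untreated and 153, 225 and 155 CPM treated. There was no call in the Smad2 line (-0.21 ± 0.43 in both genotypes, adjusted p = 0.800 and 0.919).

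The fitted Thbs1 response in Smad3fl was -1.25 ± 0.43 (adjusted p = 0.0625), just outside the threshold. With the library number as a block, it was called (-1.20, adjusted p = 1.62e-05), where 23.2% of all genes were called. The pairs behind this block were read from these same counts and not from the labels. The Thbs1 response was also called without treated library 1 (-1.77, adjusted p = 0.0174) or without untreated library 3 (-1.64, adjusted p = 0.00971), which are the highest treated and the lowest untreated library. Leaving out 1 library gave -1.77 to -0.94, with adjusted p-values from 0.00971 to 0.215, and without the libraries numbered 2 it was -1.01 (adjusted p = 0.295). In MyS3KO the change was -0.76 ± 0.43 (adjusted p = 0.322), and -0.12 (adjusted p = 0.952) without untreated library 1. Library 1 was the highest of MyS3KO in both treatments, so leaving out the untreated one alone keeps the high treated one. The MyS3KO change was called with the block (-0.67, adjusted p = 0.00382), though equal numbers were not taken as pairs there. Without the low-count filter it was called in MyS3KO (-0.80, adjusted p = 0.000128) and in Smad3fl (-1.25, adjusted p = 4.03e-11). The difference between the responses in MyS3KO and Smad3fl was 0.49 ± 0.60 (adjusted p = 0.818). Thbs1 is also a platelet product. Of the 6 platelet markers, Gp1bb had no read in any library, and Pf4, a chemokine gene that macrophages can express too, was the only marker that exceeded 1.35 CPM. The summed markers ran from 69.5 to 174 CPM in Smad3fl, from 133 to 173 CPM in MyS3KO and from 144 to 266 CPM in the Smad2 line.

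Between knockout and floxed libraries, members were called in the Smad3 line and none in the Smad2 line. The difference between the lines was not tested. In untreated MyS2KO against Smad2fl, edgeR called 0 of 9 members, against 0.0701% of all genes, and 1 member, Ltbp1, had an unadjusted p under 0.05. Under TGF-β1 it called 0 of 9, against 0.421% of all genes, and 1 member, Nrros, had an unadjusted p under 0.05. DESeq2 called 0 members in both. With so few genes called in all, these counts lie near the background.

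In untreated MyS3KO against Smad3fl, 3 of 9 members were called, against 17.7% of all genes. Ltbp3 was higher in MyS3KO (1.84 ± 0.39, 3.58-fold, adjusted p = 0.00255), Furin was higher (0.46 ± 0.15, adjusted p = 0.0405) and Thbs1 was lower (-2.16 ± 0.44, 4.47-fold, adjusted p = 0.00189). Under TGF-β1, 4 of 9 were called, against 28.2% of all genes. Ltbp3 was 5.45-fold higher (2.45 ± 0.40, adjusted p = 0.000277), Furin 1.48-fold higher (0.56 ± 0.15, adjusted p = 0.00969), Tgfb1 1.55-fold higher (0.64 ± 0.23, adjusted p = 0.0424) and Thbs1 3.19-fold lower (-1.68 ± 0.44, adjusted p = 0.00794). Both shares come from 9 genes beside a background in which calls are frequent, so the count itself says little about these members. The median log2 difference of the members was 0.39 untreated and 0.47 under TGF-β1, beside -0.03 and 0.01 for all tested genes.

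The Smad3fl libraries carry these differences to unequal degrees. Without the Smad3fl libraries numbered 3, the untreated Ltbp3 difference was 2.78 and without those numbered 1 it was 1.46, with a call either way. Without untreated Smad3fl library 3 alone it was 2.77 (adjusted p = 7.07e-06). The Thbs1 difference under TGF-β1 fell to -1.13 and lost its call without treated Smad3fl library 1 (adjusted p = 0.0672), and untreated it was -2.80 without MyS3KO library 1 (adjusted p = 0.000348). When only the groups compared were fitted, no untreated member was called, with adjusted p-values of 0.0914 for Ltbp3, 0.0805 for Thbs1 and 0.142 for Furin. The untreated Furin call was lost without untreated MyS3KO library 2 (adjusted p = 0.0877) or 3 (0.107), and without untreated Smad3fl library 1 (0.151) or 3 (0.0867). The Tgfb1 call under TGF-β1 was lost whichever of the 6 libraries was left out, with adjusted p-values from 0.0537 to 0.147. Untreated Tgfb1 differed by 0.39 (adjusted p = 0.247) and was called without MyS3KO library 1 (0.65, adjusted p = 0.0364). The Ltbp3 call and the Furin call under TGF-β1 held in each of 14 alternatives.

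**Figure D4:**
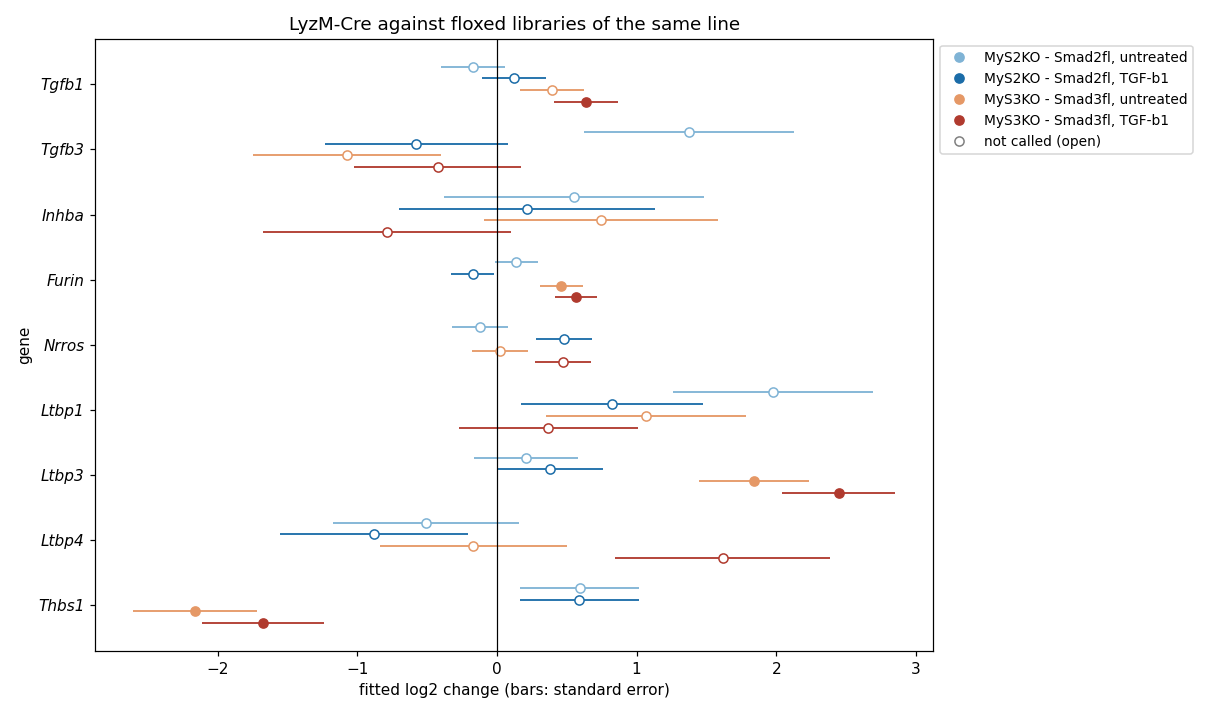
Fitted log2 difference of knockout against floxed libraries (horizontal axis) for the 9 tested members (vertical axis), for each line and treatment (colours), with standard errors as bars. Filled points passed the test, all of them in the Smad3 line: Ltbp3 and Furin higher and Thbs1 lower in MyS3KO with either treatment, and Tgfb1 higher with TGF-β1 alone.

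Whether knockout altered the response to TGF-β1 was tested as the difference of the responses within a line. In the Smad2 line edgeR called 0 of 9 members, against 0.00701% of all genes, with 1 member, Nrros, at an unadjusted p under 0.05. In the Smad3 line it called 0 of 9, against 0.021% of all genes, with 0 members at an unadjusted p under 0.05. DESeq2 called 0 members in both lines.

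The floxed lines themselves differed without treatment. In Smad3fl against Smad2fl, 4 of 9 members were called, against 33.4% of all genes. Thbs1 was 9.72-fold higher in Smad3fl (3.28 ± 0.46, adjusted p = 2.51e-05) and Tgfb3 was higher (1.99 ± 0.72, adjusted p = 0.0372), while Ltbp3 was 3.03-fold lower (-1.60 ± 0.39, adjusted p = 0.00373) and Furin 1.51-fold lower (-0.59 ± 0.15, adjusted p = 0.00581). The comparison shares its 3 Smad3fl libraries with that of untreated MyS3KO against Smad3fl. Lines can differ in more than the floxed gene, and line and library set cannot be told apart here. When only the 2 groups were fitted, over 12549 genes, Thbs1 was called, Ltbp3 (adjusted p = 0.0531) and Furin (0.0534) were not, and Tgfb3 was not among the genes tested. The Ltbp3 difference was -2.53 without Smad3fl library 3 (adjusted p = 8.43e-06). The Tgfb3 difference was 2.83 without Smad2fl library 1 (adjusted p = 0.0240), and its call was lost without Smad2fl library 2 (0.141) or 3 (0.0838) or Smad3fl library 1 (1.29, adjusted p = 0.245) or 2 (0.0794).

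Genes whose profile was most like that of Furin over the 24 libraries, by Pearson's r of log2 CPM, were Tgfbi (0.967), Piezo1 (0.963) and Kif13b (0.955). Those most like Nrros were Mtmr14 (0.952), Kif3c (0.942) and Rilpl2 (0.941). These are descriptions over libraries that share treatment, genotype and line, with no test.

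Other genes of latency and activation were counted in lists. The genes given with values are those with the most calls over the 4 responses, so they are not typical of their list. The counts stand beside calls, in either direction, among 11.1%, 3.41%, 12% and 10% of all tested genes in Smad2fl, MyS2KO, Smad3fl and MyS3KO. Of 12 listed anchors and integrins of latent TGF-β, 8 were tested. After TGF-β1, 3 rose and 1 fell in Smad2fl, and 2, 3 and 2 rose with none falling in MyS2KO, Smad3fl and MyS3KO. Itgav, whose αv chain pairs with several β chains to bind the propeptide, rose in all 4 genotypes, by log2 1.95 ± 0.19, 1.43 ± 0.19, 1.33 ± 0.19 and 1.67 ± 0.19 in Smad2fl, MyS2KO, Smad3fl and MyS3KO (adjusted p = 1.92e-07, 3.00e-05, 3.00e-05 and 1.60e-06). Itgb5, the gene of the β5 chain, rose by 1.81 ± 0.24, 1.37 ± 0.24, 1.85 ± 0.24 and 2.04 ± 0.24 (adjusted p = 1.12e-05, 0.000788, 9.40e-06 and 2.83e-06). The median over the 8 was 0.40, 0.51, 0.52 and 0.68 in that order of genotypes.

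Of 10 listed proteases that process or release TGF-β family precursors, 7 were tested, and 2, 0, 1 and 3 rose while 1, 0, 1 and 0 fell in Smad2fl, MyS2KO, Smad3fl and MyS3KO. The median over these 7 was -0.10, 0.35, -0.14 and 0.33. Plau, the gene of the plasminogen activator urokinase, rose in Smad2fl (0.86 ± 0.23, adjusted p = 0.0145), Smad3fl (2.20 ± 0.24, 1.03e-06) and MyS3KO (1.70 ± 0.24, 2.22e-05), and its value in MyS2KO was 0.35 ± 0.23 (0.654). Pcsk7, another furin-type convertase gene, fell in Smad2fl (-0.51 ± 0.16, adjusted p = 0.0433) and Smad3fl (-0.59 ± 0.16, 0.0179), opposite to Furin. Its values in MyS2KO and MyS3KO were -0.33 ± 0.16 and -0.28 ± 0.16, without a call.

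Of 15 other ligands of the superfamily, 5 were tested, none rose, and 1, 0, 2 and 1 fell. Bmp2, a bone morphogenetic protein gene, fell in Smad2fl (-1.97 ± 0.44, adjusted p = 0.00403), Smad3fl (-1.66 ± 0.49, 0.0289) and MyS3KO (-1.87 ± 0.48, 0.0131), and stood at -1.18 ± 0.43 in MyS2KO (0.194). Gdf15, a stress-induced ligand gene, fell in Smad3fl (-1.21 ± 0.28, adjusted p = 0.00502) and was not called elsewhere. Of 11 ligand traps, 4 were tested and 1 was called, Tsku, which fell in Smad2fl (-0.98 ± 0.26, adjusted p = 0.0158). The 7 feedback genes of the pathway, listed as positive controls, all rose in every genotype. Among them Smad7, an inhibitory SMAD gene, rose from 1.07 ± 0.20 to 42.4 ± 1.61 CPM in Smad2fl and from 1.10 ± 0.49 to 24.1 ± 1.39 CPM in MyS2KO. It rose from 0.678 ± 0.145 to 52.3 ± 4.69 CPM in Smad3fl and from 0.814 ± 0.121 to 42.6 ± 4.08 CPM in MyS3KO (SD, n = 3).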

How the data were processed

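Polyadenylated RNA of 24 libraries was sequenced with the NEBNext Ultra RNA kit on a NovaSeq instrument, per the labels' protocols. HTSeq 0.6.1, TopHat2 2.0.9 and Cufflinks 2.1.1 are named in the submitters' processing notes, with the builds GRCm38.p6 and mm10. Which tool did what, and whether counting used strand, is not given in the sources used here, so reads of overlapping genes on opposite strands cannot be told apart. The authors deposited raw read counts per gene, which were used for all tests. The authors also deposited FPKM, which follow from the same counts and were used only to order genes by level per length. The deposited FPKM of 8 members rest on a shorter length than the listed gene length, and Tgfb3 and Ltbp3 on the listed one.

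Counts were scaled with TMM factors and filtered with filterByExpr over the 8 groups in edgeR 4.0.16 (R 4.3.3), which left 14261 of 54532 genes. All libraries were fitted in 1 model with a mean per group, on 16 residual degrees of freedom, and 11 comparisons were tested by quasi-likelihood. Benjamini-Hochberg adjustment ran over all tested genes, and an adjusted p under 0.05 was a call. The fit was also run on simulated counts with known changes, drawn with a common spread for all genes. The outcome is not given here, and such counts cannot speak for genes with a wider spread. Likeness used log2 CPM with a prior count of 2. Counting error alone at these depths is small for the abundant members (72 reads or more) and large for the scarce ones (44 reads or fewer).

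The members and the gene lists were chosen with earlier results of these data known. All 10 members are described. From each other list, only the 2 genes with the most calls over the 4 TGF-β1 responses could be named with values. Ties were settled by the mean absolute log2 change. For members called in at least 3 of the 4 responses the 3 genes with the highest r are named. In the responses in MyS2KO (r from 0.154 to 0.405) and Smad3fl (0.334 to 0.445), equal-numbered libraries all deviated together past a small cutoff on r. There the numbers were taken as pairs, from the data and not from the labels. In Smad2fl and MyS3KO the equal-numbered r were also positive, but as low as 0.0465 and 0.0439, and no pairs were taken. Those of Smad2fl lay above every unequal pair (0.0384 or less). In MyS2KO r reached 0.197 between unequal numbers, so the pairing is not established. Alternatives were RLE scaling, no low-count filter, DESeq2 1.42.0, only the groups compared, a replicate block, each library left out, and the Smad3fl libraries left out by number, of which numbers 1 and 2 were added after seeing the data.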

Additional observations from a re-analysis of the deposited data

How the results depend on the processing

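Over 99 member results, 1307 values under alternatives were computed: 1259 kept direction and side of the threshold, 35 lost a call, 13 gained a call and 0 reversed. A sign change of a value that was called in neither setting counts as kept. Only results called in the main fit can lose a call, and most were not called, so 35 is not to be read against 1307. The changes fell on 16 of the 99 results. With the replicate block, 2 members were called in the MyS2KO response in place of 1 (Nrros gained). The block also called Thbs1 in Smad3fl, and in MyS3KO (-0.67, adjusted p = 0.00382), where the numbers were not taken as pairs. It ended the calls of untreated Furin (adjusted p = 0.0731) and treated Tgfb1 (0.0876) in MyS3KO against Smad3fl and of Tgfb3 in Smad3fl against Smad2fl (0.0862), and changed no other member call. The last of these fits held only the floxed libraries and tested 13611 genes in place of 14261, so the block was not the only change. With only the groups compared, 0 members were called in untreated MyS3KO against Smad3fl in place of 3, and 1 in Smad3fl against Smad2fl in place of 4, from fits with fewer samples and genes. Tgfb3 was not among the genes tested in the last. Without a low-count filter, 1 member was called in MyS2KO against Smad2fl under TGF-β1 in place of 0 (Thbs1, adjusted p = 0.0491), Thbs1 was called in Smad3fl (-1.25, adjusted p = 4.03e-11) and MyS3KO (-0.80, 0.000128), Nrros under TGF-β1 in the Smad3 line (0.46, 0.0469) and Tgfb3 in Smad2fl (1.96, 0.0384), and untreated Furin in the Smad3 line was not (0.0542). The cause was not tested. Leaving out 1 library gave 1 to 2 members in the MyS3KO response and 2 to 3 in MyS3KO against Smad3fl under TGF-β1. Without the Smad3fl libraries numbered 1, that comparison had 2.

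Counts of all called genes moved by more than 1.5 times as follows. The block gave 3237 for 1584 in Smad2fl, 1032 for 486 in MyS2KO, 3306 for 1714 in Smad3fl and 2749 for 1428 in MyS3KO. It gave 3 for 10 and 0 for 60 in MyS2KO against Smad2fl untreated and under TGF-β1, 1599 for 2531 in untreated MyS3KO against Smad3fl, and 2 for 1 and 6 for 3 in the interactions of the Smad2 and Smad3 lines. With only the groups compared the counts were 1004 in Smad3fl, 893 in MyS3KO, 0 and 271 in MyS2KO against Smad2fl, 256 in untreated MyS3KO against Smad3fl, 2209 for 4762 between floxed lines and 0 in both interactions. DESeq2 gave 92 and 218, and no filter 161 and 313, in MyS2KO against Smad2fl. In the interactions DESeq2 gave 8 and 15 and no filter 13 and 161, and RLE scaling gave 1 in the Smad3 line. Without the Smad3fl libraries numbered 1, 2 or 3 the Smad3fl response had 1130, 1138 and 978 calls. Untreated MyS3KO against Smad3fl had 1459 without number 1 and 1253 without number 2. Without number 2, the treated comparison had 2385 for 4017 and the floxed lines 2531. The Smad3 line interaction had 0 without number 1 or 2. With 1 library left out the lowest counts were 316 in MyS2KO, 914 in MyS3KO, 1136 in Smad3fl, 2 and 0 in MyS2KO against Smad2fl, 1367 and 2219 in MyS3KO against Smad3fl, 2744 between floxed lines and 0 in both interactions. The Smad3 line interaction reached 6.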
